A study of Mus musculus with 6 samples.

Results

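The transcripts of 9 genes that encode regulators of neuronal splicing were described in AGO2 chimeric eCLIP of P0 mouse brain: *Ptbp1*, *Ptbp2*, *Ptbp3*, *Nova1*, *Nova2*, *Rbfox1*, *Rbfox2*, *Rbfox3* and *Srrm4*. These are 9 of the 49997 genes of the mm10 RefSeq annotation. A cluster was taken when it overlapped the body of a member gene on its own strand. This gave 1920 of the 359172 AGO2 clusters in WT, 3657 of 616014 in *Mov10* Deletion 1 and 3657 of 616005 in *Mov10* Deletion 2. Of the clusters of chimeric reads that name a miRNA (target clusters), 140 of 18029, 231 of 27152 and 123 of 12379 lay on these genes.

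The libraries were made to ask whether the loss of MOV10, an RNA helicase that associates with AGO2, changes what AGO2 binds in brain, with *Numa1* as the transcript of main interest to the study. In eCLIP, UV light crosslinks a protein to the RNA it touches and the bound fragments are sequenced beside a size-matched input. In the chimeric form, the miRNA in AGO2 is ligated to its target, so that 1 read can hold both. There was 1 WT brain IP library and there were 2 *Mov10* Deletion IP libraries, all of whole C57Bl/6J brain at postnatal day 0, and the inputs entered only through the IP over input values. The *Mov10* Deletion animals carried a floxed *Mov10* (exons 6 and 7) that Emx1-Cre removes in cortical and hippocampal excitatory neurons, crossed with a *Mov10* heterozygous mutant, so cells outside that lineage keep the floxed allele. On *Mov10* itself there were 11, 9 and 9 AGO2 clusters in WT, *Mov10* Deletion 1 and *Mov10* Deletion 2, and their highest log2 IP over input was 4.0, 2.80 and 2.84. Clusters on a gene do not measure its level, fewer cells with a transcript and less of it per cell cannot be told apart in whole brain, and 1 IP library per brain with 1 WT brain allows no test between genotypes, so all values below are given per library.

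PTBP1 is the polypyrimidine tract binding protein of neural progenitors and non-neuronal cells, where it keeps many neuronal exons out of mRNA. In the textbook account, miR-124, an abundant neuronal miRNA, represses *Ptbp1* as neurons form, and PTBP2, whose own mRNA is lost by nonsense-mediated decay when PTBP1 skips one of its exons, takes over for a time. NOVA1 and NOVA2 bind YCAY motifs and RBFOX1, RBFOX2 and RBFOX3 (the neuronal nuclear antigen NeuN) bind GCAUG motifs to switch neuronal exons. SRRM4 (nSR100) promotes neuronal microexons, and PTBP3 is a less studied relative of PTBP1.

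The mature sequences of miRNAs named on these genes are shown because shared seeds group the clusters and because their matches were looked for under each cluster. They are from RefSeq (mm10 table), 5′ to 3′, with the seed (bases 2 to 8) in capitals. The sequence of miR-124-3p was not used here.
miR-125b-5p: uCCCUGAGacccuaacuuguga
miR-9-5p: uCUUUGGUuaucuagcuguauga
let-7c-5p: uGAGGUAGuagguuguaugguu
let-7d-5p: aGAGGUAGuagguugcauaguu
miR-181a-5p: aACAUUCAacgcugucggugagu
miR-181c-5p: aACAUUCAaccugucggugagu
The let-7 family shares 1 seed and the miR-181 pair another. Matches are to the reverse complement of the seed: CTCAGGG for miR-125b-5p, ACCAAAG for miR-9-5p, CTACCTC for let-7 and TGAATGT for miR-181.

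Target sites under some of these clusters are shown next, on the gene's strand and 5′ to 3′ in GRCm39, with the 7-nt match to the seed in capitals. The first is in the *Ptbp2* 3’UTR, the second in its coding sequence, the next pair are copies of a repeat in a *Nova1* intron, and the last is in an *Rbfox1* intron.
Ptbp2 miR-9-5p, chr3:119512979-119513005, minus: accaggtgggACCAAAGtttatgtgcc
Ptbp2 let-7, chr3:119514561-119514587, minus: gactgtgcaaCTACCTCgagagggact
Nova1 miR-125b-5p, chr12:46755046-46755072, minus: cacatggttaCTCAGGGcattcacatc
Nova1 miR-125b-5p, chr12:46755098-46755124, minus: cacatggtcaCTCAGGGcattcacatc
Rbfox1 miR-181a-5p and miR-181c-5p, chr16:6812013-6812039, plus: tcaccatgtaTGAATGTatgtatgtat
Of windows as long as the cluster along the same gene, 1.09 to 1.31% held the miR-9-5p match in *Ptbp2*, 0.173% the let-7 match in *Ptbp2*, 0.941 to 1.6% the miR-125b-5p match in *Nova1* and 1.05 to 1.23% the miR-181 match in *Rbfox1*.

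AGO2 clusters were called enriched when the log2 IP over input was at least 3 and −log10 p at least 3. On the 9 genes, 64 of 1920 clusters were enriched in WT (3.33%, exact 95% interval 2.58 to 4.24), 279 of 3657 in *Mov10* Deletion 1 (7.63%, 6.79 to 8.54) and 134 of 3657 in *Mov10* Deletion 2 (3.66%, 3.08 to 4.32), where 2.11, 5.18 and 3.1% of all clusters were enriched. Intervals cover counting error only. In *Mov10* Deletion 2 the member interval holds the share of all clusters. Without *Rbfox3*, an alternative chosen after seeing the data, the share was 2.71% in WT (1.98 to 3.62), 5.44% in *Mov10* Deletion 1 (4.66 to 6.32) and 2.52% in *Mov10* Deletion 2 (1.99 to 3.15), and each of these intervals holds the share of all clusters. The libraries were not alike in what enrichment demands: over an input of 1 read, 16 IP reads were needed in WT, 9 in *Mov10* Deletion 1 and 8 in *Mov10* Deletion 2. Enriched member clusters held a median of 64, 16 and 14 IP reads. The clusters of the *Mov10* Deletion libraries have the same start and end for 3652 of 3657 member clusters, so their positions are not independent, and clusters of 1 library share its reads and input.

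An enriched cluster was found on 8 of the 9 genes in WT and on all 9 in each *Mov10* Deletion library, while 18.7, 40.9 and 32.1% of all genes with an AGO2 cluster had one. The exception at this cut-off was *Ptbp2* in WT. With at least 16 IP reads the count was 8 genes in WT, 9 in *Mov10* Deletion 1 and 7 in *Mov10* Deletion 2. At a −log10 p of at least 5 it was 7, 9 and 8. All 9 genes had a target cluster in every library (40.9, 45.9 and 32.2% of all genes with an AGO2 cluster), and miR-124-3p was named on 9, 8 and 8 of them (29.6, 29.4 and 18.2% of all such genes), with *Srrm4* missing in *Mov10* Deletion. Members differ in length from 10004 nt (*Ptbp1*) to 1527688 nt (*Rbfox1*), and a longer gene has more room for clusters.

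The share of AGO2 clusters that were enriched differed among the genes. On *Ptbp1* it was 4 of 5 clusters in WT, 11 of 12 in *Mov10* Deletion 1 and 5 of 12 in *Mov10* Deletion 2. On *Rbfox3* it was 20 of 296, 117 of 681 and 59 of 681, and on *Rbfox1*, which held most member clusters, 21 of 1147, 78 of 2241 and 43 of 2241. *Ptbp1* had the highest share in each library. *Rbfox1* stood at 1.83, 3.48 and 1.92%, against 2.11, 5.18 and 3.1% of all clusters. In WT these values were close, so no difference is read from that library.

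**Figure D1:**
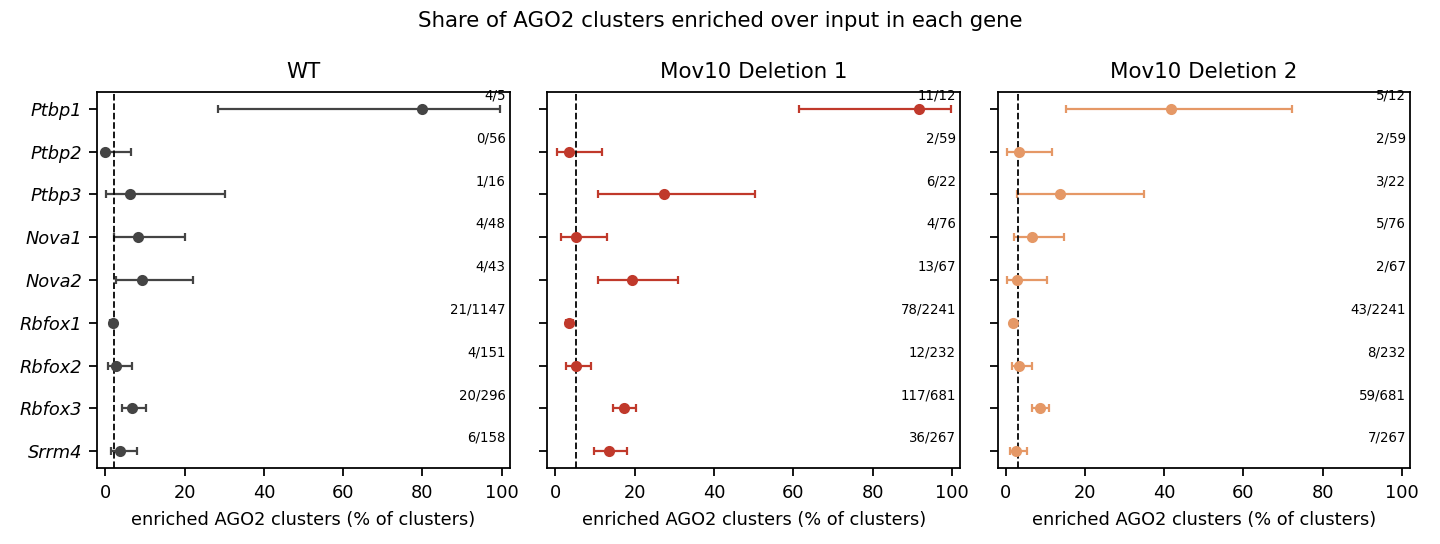
Share of AGO2 clusters that were enriched (percent, x axis) on each gene (y axis) and in each library, with exact 95% intervals for counting error, the counts printed at the right and a dashed line at the share of all clusters of the library. *Ptbp1* lies farthest to the right in each library, with 4 of 5, 11 of 12 and 5 of 12 clusters, and *Rbfox3* lies at 6.76, 17.2 and 8.66%.

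miR-124-3p on the *Ptbp* genes was read first. It was named by 13 of the 24 assignments of a miRNA to a target cluster on these 3 genes in WT, by 7 of 14 in *Mov10* Deletion 1 and by 7 of 10 in *Mov10* Deletion 2, beside 42.2, 34.8 and 36.8% of all assignments of these libraries. These counts are small and have no interval here, so no excess on the *Ptbp* genes is read from them. Each target cluster has a score in the deposited files, at least 3 in every library, whose meaning is not given in the sources used here, so scores are compared only in words. On *Ptbp1*, *Ptbp2* and *Ptbp3*, 1 miR-124-3p locus each, in the 3’UTR, recurred in all 3 libraries.

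*Ptbp1* lies at chr10:79854432-79864435 (mm10, plus strand), and the recurring locus spans chr10:79863506-79863589 in its 3’UTR, 866 to 908 nt before the end of the gene. The miR-124-3p score was 64.0 in WT, at 886 nt from the end. In *Mov10* Deletion 1 a pair of clusters there scored 15.5 and 26.1, and in *Mov10* Deletion 2 the same pair scored 5.99 and 7.13. The WT value is the highest score of any assignment on the *Ptbp* genes.

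The same stretch held the most enriched AGO2 cluster of *Ptbp1* in every library. In WT it ran over chr10:79863468-79863611 with a log2 IP over input of 6.34 (96 IP reads over 1 input read, −log10 p 23.8). In both *Mov10* Deletion libraries it ran over chr10:79863511-79863599, with a log2 of 5.95 (71 over 2 reads) in the first and 6.46 (37 over 1 read) in the second. An input of 1 read can stand for 0 or 1, so ratios over it rest mainly on the IP.

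A second *Ptbp1* stretch, 616 to 630 nt from the end, was named differently among the libraries. In WT its cluster named miR-124-3p (19.1), miR-9-5p (7.02) and miR-19b-3p (5.0). *Mov10* Deletion 1 named miR-9-5p alone there (9.91) and again at 558.5 nt (3.11), and *Mov10* Deletion 2 named miR-124-3p alone (10.5). AGO2 clusters over the stretch were enriched in all 3, at a log2 of 4.51, 4.05 and 3.42. A further miR-124-3p cluster 1077 nt from the end, with a score of 14.2, was in WT only and had no AGO2 cluster under it, and the WT cluster at 886 nt also named miR-125b-5p (4.0).

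Every enriched AGO2 cluster of *Ptbp1* in WT lay in the 3’UTR, but so did all 5 of its AGO2 clusters, so the enriched ones could lie nowhere else. In *Mov10* Deletion 1, 9 of 11 enriched clusters lay there and in *Mov10* Deletion 2, 4 of 5. Of all AGO2 clusters of *Ptbp1*, 9 of 12 lay there in each of these libraries. The cluster 216 nt from the end (log2 3.19 and 3.71 in *Mov10* Deletion 1 and 2) counts as coding only through short alternative transcripts, and the other, 3491 nt from the end (log2 3.26, 11 over 2 reads, *Mov10* Deletion 1), is in the coding sequence.

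**Figure D2:**
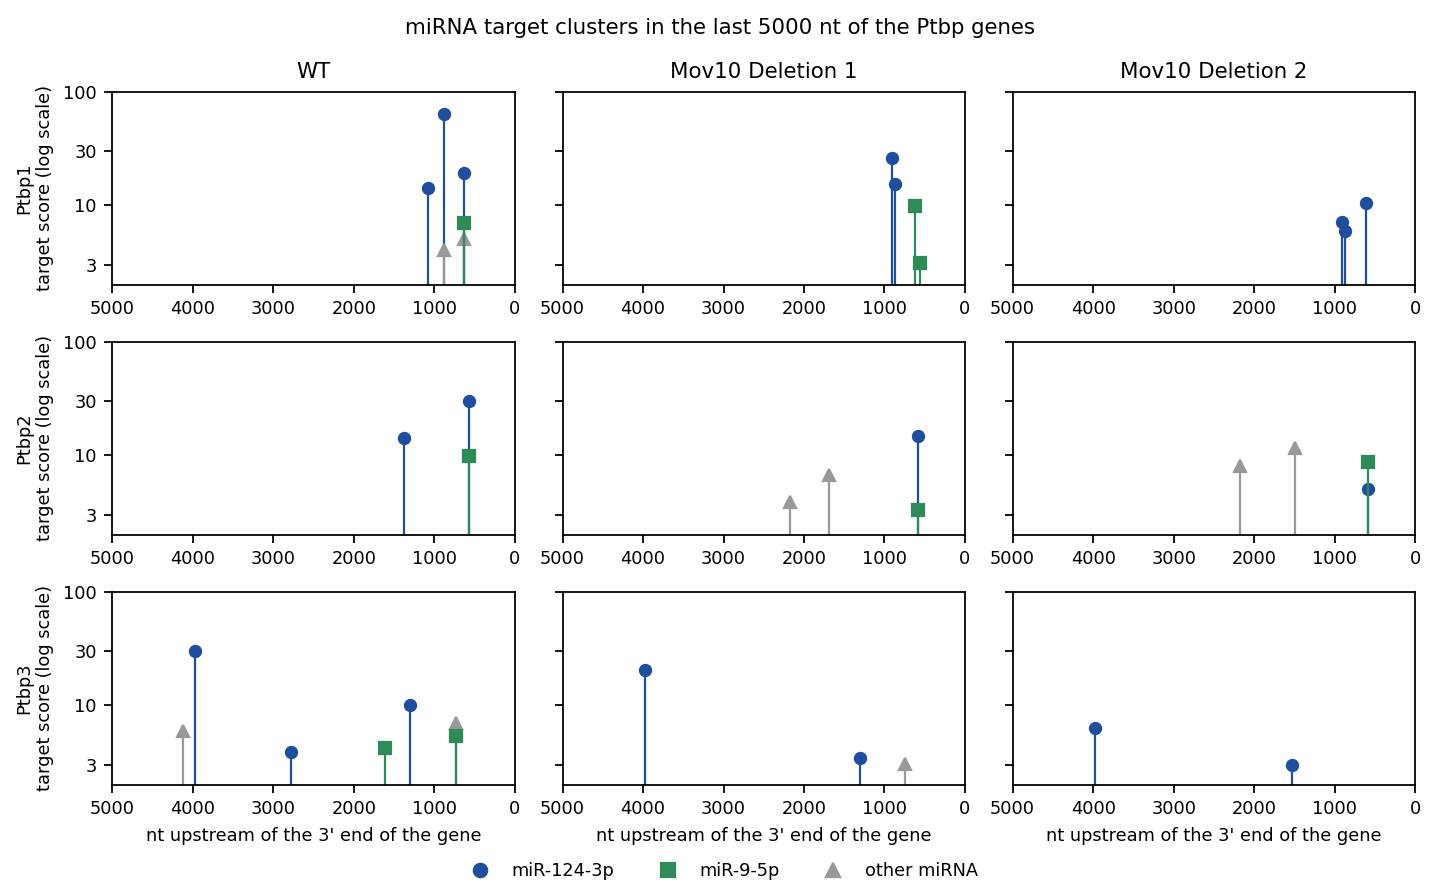
Score of each target cluster assignment (log axis) against the distance in nt before the 3′ end of *Ptbp1*, *Ptbp2* and *Ptbp3*, for the last 5000 nt in each library. Circles are miR-124-3p, squares miR-9-5p and triangles other miRNAs, and the highest circle of *Ptbp1* stands at 64.0 in WT and at 26.1 and 10.5 in the *Mov10* Deletion libraries.

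*Ptbp2* (chr3:119718741-119784647, minus strand) had a recurring locus that named miR-9-5p beside miR-124-3p, chr3:119719260-119719373 in the 3’UTR, 576 to 580 nt from the end. The miR-124-3p scores were 29.8 in WT, 14.7 in *Mov10* Deletion 1 and 5.0 in *Mov10* Deletion 2. For miR-9-5p they were 9.75, 3.27 and 8.75, so the order of the miRNAs in *Mov10* Deletion 2 was the opposite of that in the other libraries. The miR-9-5p site printed above for the *Ptbp2* 3’UTR lies inside the cluster in each library, 599 nt from the end.

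Unlike on *Ptbp1*, AGO2 over this *Ptbp2* locus was close to its input. The highest log2 IP over input under the shared cluster was 0.62 in WT, 0.33 in *Mov10* Deletion 1 and 0.94 in *Mov10* Deletion 2. No *Ptbp2* cluster was enriched in WT, where the highest log2 among clusters with −log10 p of at least 3 was 2.41. In *Mov10* Deletion 1 the top cluster was in the coding sequence (chr3:119726168-119726208, log2 3.75, 31 over 4 reads), and in *Mov10* Deletion 2 in the 3’UTR (chr3:119720220-119720258, log2 4.06, 14 over 2 reads). These do not overlap the locus.

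The other miR-124-3p clusters of *Ptbp2* were mostly intronic. WT had them in introns 14290.5, 25686.5 and 27270 nt from the end (13, 16.5 and 11.2), in a non-coding exon (3.55) and at 1371 nt in the 3’UTR (14.1). *Mov10* Deletion 1 had one at 27253.5 nt (15.0), its top *Ptbp2* score, and *Mov10* Deletion 2 one at 14250 nt (7.86), each overlapping a WT cluster. The top *Ptbp2* score in *Mov10* Deletion 2 was for miR-296-5p (11.7) in the 3’UTR, where its top AGO2 cluster also lies. In the coding sequence, let-7g-5p (3.88, *Mov10* Deletion 1) and let-7d-5p (8.0, *Mov10* Deletion 2) shared a cluster 2176 nt from the end, over the let-7 site printed above.

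*Ptbp3* (chr4:59471868-59549378, minus strand) had its recurring miR-124-3p locus at chr4:59475771-59475908, 3972 to 3976 nt from the end in the 3’UTR. Its scores were 29.9 in WT, 20.3 in *Mov10* Deletion 1 and 6.34 in *Mov10* Deletion 2. The AGO2 cluster over it had a log2 of 1.93 in WT, 3.94 in *Mov10* Deletion 1, where it was enriched (53 over 6 reads), and 2.84 in *Mov10* Deletion 2. Here the library with the highest score had the lowest AGO2 ratio.

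Nearer the end of *Ptbp3*, miR-124-3p was named at 1306.5 nt in WT (10.1) and at 1299 nt in *Mov10* Deletion 1 (3.43). *Mov10* Deletion 1 had its top *Ptbp3* AGO2 cluster there (chr4:59473136-59473190, log2 5.58, 55 over 2 reads). In *Mov10* Deletion 2 the same AGO2 cluster was enriched (log2 3.58) with no miRNA, its top cluster lay at chr4:59473301-59473355 (log2 3.95, 13 over 2 reads), and miR-124-3p was named at 1525 nt (3.0). The top AGO2 cluster of WT was in an intron (chr4:59547709-59547847, log2 3.93, 18 over 1 read). The remaining miR-124-3p clusters were at 2777 nt (3.90) and in an intron at 75935.5 nt (5.73) in WT and in an intron at 23365 nt (4.0) in *Mov10* Deletion 1.

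**Figure D3:**
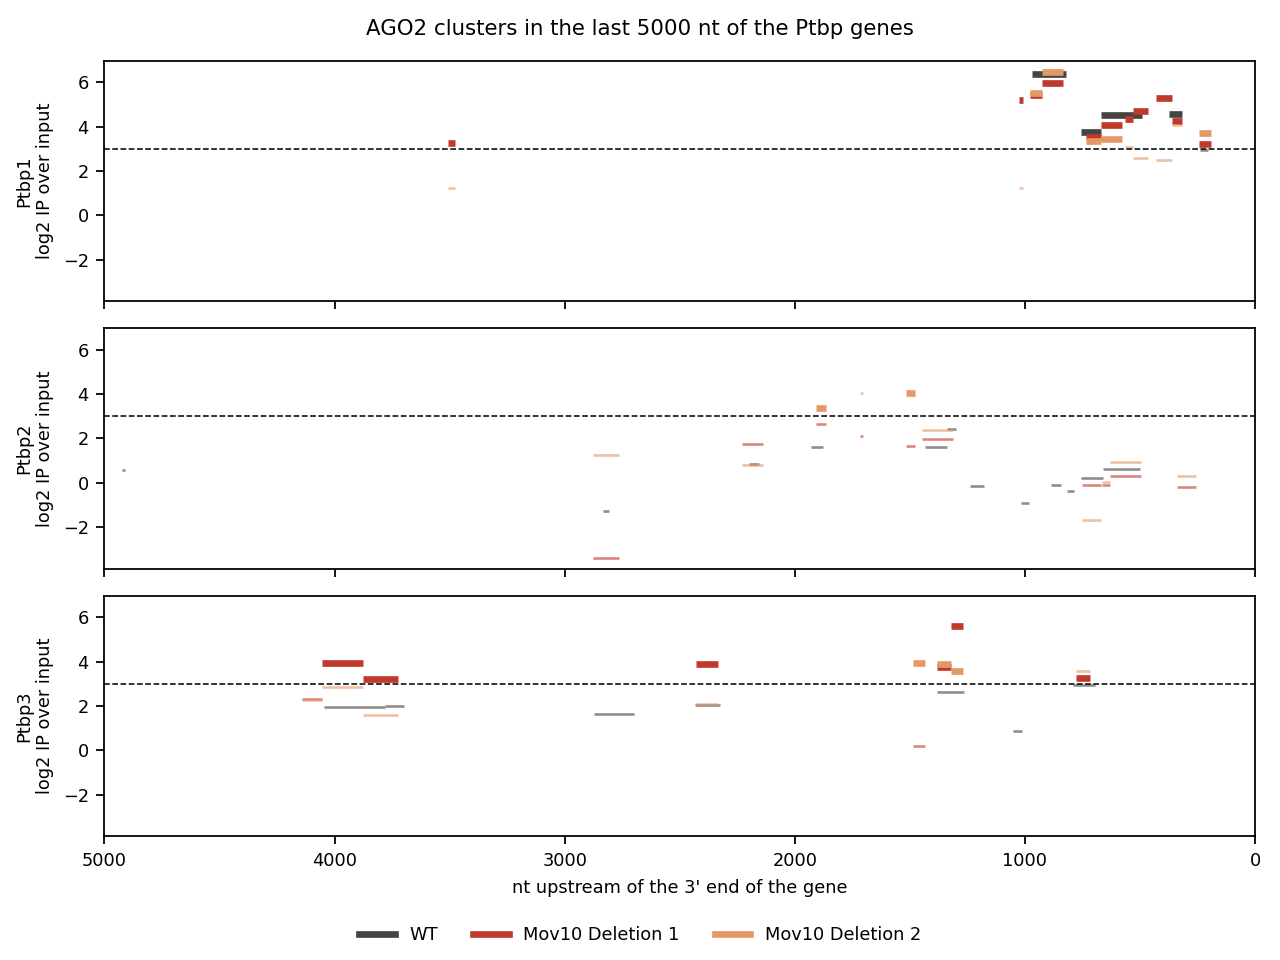
Log2 IP over input of the AGO2 clusters in the last 5000 nt of the 3 *Ptbp* genes by library, against the distance in nt before the 3′ end. Bars span each cluster, thick bars are enriched and the dashed line marks a log2 of 3. *Ptbp1* reaches 6.34, 5.95 and 6.46 near 880 nt. *Ptbp2* clusters pass the line in *Mov10* Deletion 2 only, at 1498 nt (4.06), 1709.5 nt (4.06, not enriched) and 1886.5 nt (3.37).

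Of the target clusters on the 3 *Ptbp* genes, 11 of 19 in WT, 8 of 13 in *Mov10* Deletion 1 and 7 of 9 in *Mov10* Deletion 2 were in a 3’UTR, against 27 of 140, 25 of 231 and 12 of 123 over the 9 genes, most of whose target clusters are intronic. The *Ptbp* genes were not alike. On *Ptbp1* it was all 3, 4 and 3 target clusters, on *Ptbp3* 6 of 7, 3 of 4 and 2 of 2, and on *Ptbp2* 2 of 9, 1 of 5 and 2 of 4. Outside them, *Rbfox2* had 8 of 12, 10 of 23 and 2 of 10 in its 3’UTR and *Nova2* 5 of 9, 4 of 6 and 2 of 4. Of the enriched AGO2 clusters of the *Ptbp* genes, 4 of 5, 15 of 19 and 8 of 10 were in a 3’UTR, against 7 of 64, 26 of 279 and 14 of 134 over the 9 genes, and neighbouring clusters can come from the same site. By gene it was 4 of 4, 9 of 11 and 4 of 5 on *Ptbp1* and 0 of 1, 6 of 6 and 3 of 3 on *Ptbp3*. *Ptbp2* had no enriched cluster in WT, and 0 of 2 and 1 of 2 in the *Mov10* Deletion libraries. Of all AGO2 clusters of the *Ptbp* genes, enriched or not, 23 of 77, 23 of 93 and 23 of 93 were in a 3’UTR. Over the 9 genes it was 69 of 1920, 93 of 3657 and 93 of 3657. The counts over the 9 genes include the *Ptbp* genes.

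*Nova1* (chr12:46697895-46819480, minus strand) had 48 AGO2 clusters in WT and 76 in each *Mov10* Deletion library, of which 4, 4 and 5 were enriched. It held 27, 21 and 16 assignments and 7 recurring loci, where a place counts once for each miRNA that recurred there. Of those loci, 6 lay in 1 intron, on a tandem repeat with a period of 26 nt, 9600 to 10676 nt from the end of the gene. Within the repeat, 26 matches to the miR-125b-5p seed (CTCAGGG) stood at steps that were all multiples of 26 nt, of 31 matches in the whole gene on its strand.

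In this repeat, the top miR-125b-5p score was 44.4 in WT, 43.6 in *Mov10* Deletion 1 and 11.3 in *Mov10* Deletion 2. The top miR-124-3p score was 40.3, 17.3 and 14.2, on clusters that named both. These were the highest scores of *Nova1* in all 3 libraries. The repeat held 8, 8 and 5 target clusters and 12, 14 and 14 AGO2 clusters, of which 2, 1 and 3 were enriched. How reads were placed among the copies of the repeat was not examined, so its clusters may not be separate sites. They are still included in the counts of clusters and recurring loci given here. Without the repeat the 9 genes had 155, 237 and 122 assignments instead of 173, 251 and 133.

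Outside the repeat, a miR-124-3p locus in the *Nova1* coding sequence (chr12:46700486-46700581) recurred with scores of 7.71 in WT, 12 in *Mov10* Deletion 1 and 4.86 in *Mov10* Deletion 2. The WT AGO2 cluster over it was the top one of the gene (chr12:46700454-46700571, log2 4.04, 39 over 2 reads), and the *Mov10* Deletion libraries stood at 2.71 and 2.67 there. Their own top cluster was intronic and shared, chr12:46709118-46709143, with a log2 of 5.12 (80 over 4 reads) and 3.53 (29 over 6 reads). WT was enriched at the same place (chr12:46709110-46709189, log2 3.68, 167 over 11 reads). In the 3’UTR, miR-138-5p was named in WT (5.84) and *Mov10* Deletion 1 (4.54). An intronic miR-9-5p cluster 5322.5 nt from the end in WT scored 19.3, and one over the same seed match scored 5.67 in *Mov10* Deletion 1.

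*Nova2* (chr7:18925888-18965319, plus strand) had no recurring locus. It had 43, 67 and 67 AGO2 clusters with 4, 13 and 2 enriched, and 11, 7 and 5 assignments. The top score was for miR-124-3p in each library: 10.4 in WT at 600 nt in the 3’UTR, 8.18 in *Mov10* Deletion 1 at 3446 nt in the 3’UTR, and 5.0 in *Mov10* Deletion 2 in an intron. Both 3’UTR loci were seen in WT and *Mov10* Deletion 1, the first at 5.46 in the latter and the second at 3.77 in the former.

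AGO2 on *Nova2* peaked at different places. The top cluster was intronic in WT (chr7:18946398-18946587, log2 3.25, 45 over 4 reads) and in the 3’UTR in *Mov10* Deletion 1 (chr7:18963151-18963185, log2 4.66, 29 over 2 reads) and *Mov10* Deletion 2 (chr7:18960935-18961058, log2 3.66, 37 over 7 reads). The last was also enriched in *Mov10* Deletion 1 (3.94). In the coding sequence, let-7 miRNAs were named in WT (let-7b-5p 4.8 and let-7c-5p 3.94, under an AGO2 cluster at log2 3.22) and close by in *Mov10* Deletion 1 (let-7a-5p 4.0 and let-7c-5p 3.58).

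*Rbfox1* (chr16:5884793-7412480, plus strand) held 75, 155 and 77 assignments, nearly all intronic: 74, 154 and 76. It had 12 recurring loci, counted once for each miRNA, 8 of them of miR-124-3p. The strongest in WT lay at chr16:6051880-6051977, 1360552 nt from the end, with scores of 25.3, 7.94 and 6.66. In *Mov10* Deletion 1 the top score was at chr16:7187657-7187767 (20.4, against 16.3 in WT and 4.96 in *Mov10* Deletion 2). In *Mov10* Deletion 2 it was at chr16:6918111-6918211 (10.9, against 6.74 and 4.38).

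The other 5 recurring miR-124-3p loci of *Rbfox1*, between 616774 and 1298292 nt from the end, scored 6.86 to 16.5 in WT, 7.02 to 17.3 in *Mov10* Deletion 1 and 3.0 to 6.01 in *Mov10* Deletion 2. AGO2 over the 8 loci was rarely enriched. In WT only the pair at 700304 and 616774 nt passed a log2 of 3, at 3.08 and 3.56, and in the *Mov10* Deletion libraries the highest value was 2.80.

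The remaining recurring loci of *Rbfox1* named miR-181a-5p, miR-181c-5p, miR-466f-3p and miR-9-5p. The miR-181 pair shared chr16:6994123-6994220 with scores for miR-181a-5p of 18.7, 5.99 and 5.78 and for miR-181c-5p of 6.92, 11 and 5.65, over the site printed above. miR-466f-3p scored 7.7, 11.7 and 6.0 at chr16:7284393-7284573, and miR-9-5p 3.95, 6.73 and 3.0 at chr16:7126596-7126700. The order of the miR-181 pair in *Mov10* Deletion 1 was the opposite of that in WT.

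The AGO2 clusters of *Rbfox1* with the highest ratio were intronic and at different places by library. In WT this was chr16:6996257-6996323 (log2 4.22, 44 over 2 reads). In *Mov10* Deletion 1, 3 clusters tied at a log2 of 4.89 (17 over 1 read each), at chr16:6428372-6428424, chr16:6429596-6429614 and chr16:7387334-7387345. In *Mov10* Deletion 2, 6 clusters tied at 5.34 (17 over 1 read each), all within chr16:5964093-5964205. Of the 9 genes, *Rbfox1* was the only one with enriched or target clusters that also fell in another RefSeq gene on the same strand, 1700123O21Rik, with 1 enriched cluster in each *Mov10* Deletion library and 1 target cluster in the first.

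*Rbfox2* (chr15:77078990-77308434, minus strand) had 13 of its 17 assignments in the 3’UTR in WT, 11 of 25 in *Mov10* Deletion 1 and 2 of 10 in *Mov10* Deletion 2. It had 3 recurring loci and 4, 12 and 8 enriched AGO2 clusters. The strongest recurring locus was intronic, chr15:77089070-77089165, with miR-124-3p scores of 21.7, 31.9 and 9.0, the top scores of the gene in each library. AGO2 over it had a log2 of 1.51, 1.72 and 1.84, below the threshold in all 3.

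A miR-124-3p locus in the *Rbfox2* 3’UTR, chr15:77083895-77084011, recurred with scores of 12.6, 5.69 and 4.93. The third locus, of miR-466i-5p in an intron, scored 3.0, 3.0 and 6.0 and had no AGO2 cluster. Further 3’UTR clusters were shared by WT and *Mov10* Deletion 1: miR-92a-3p (10.3 and 5.61), miR-125b-5p (8.64 and 8.13, over enriched AGO2 clusters with a log2 of 3.10 and 3.28) and miR-16-5p (3.93 and 3.73). AGO2 peaked in the 3’UTR in WT (chr15:77079839-77079922, log2 3.19, 54 over 5 reads) and *Mov10* Deletion 1 (chr15:77080635-77080695, 4.32, 46 over 4 reads), and in an intron in *Mov10* Deletion 2 (chr15:77205104-77205175, 4.84, 12 over 1 read).

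*Rbfox3* (chr11:118489760-118911597, minus strand) had 4 miR-124-3p loci side by side in an intron near the start of the gene, 397240 to 397792 nt from its end, and all 4 recurred. Taken from the 3′ end, their scores were 13.8, 38.1, 26.9 and 20.7 in WT, 6.18, 24.0, 22 and 12 in *Mov10* Deletion 1, and 5.27, 9.01, 14.6 and 3.74 in *Mov10* Deletion 2. These include the top score of the gene in each library. Each lay over an enriched AGO2 cluster in each library, which was so at no other recurring intronic locus of the 9 genes.

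The AGO2 values over those 4 loci ran from a log2 of 3.71 to 5.97 in WT, from 5.32 to 6.32 in *Mov10* Deletion 1 and from 4.06 to 5.16 in *Mov10* Deletion 2. They include the top cluster of *Rbfox3* in WT (chr11:118887046-118887224, 74 over 1 read) and in *Mov10* Deletion 1 (chr11:118887324-118887471, 46 over 1 read). In *Mov10* Deletion 2 the top cluster was in another intron (chr11:118527788-118527805, log2 5.25, 16 over 1 read). No tandem repeat with a period of 10 to 100 nt was found under the 4 loci. Longer periods were not sought, so copies of a longer repeat cannot be told from separate sites there. A repeat with a period of 24 nt stands just beyond the 4 loci, at 398000 to 398324 nt, and held no cluster.

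A second stretch of *Rbfox3*, named after its values were seen, carried AGO2 with few miRNAs. Over chr11:118784675-118785522, 10 clusters were enriched in WT (log2 3.06 to 4.99, 64 to 197 IP reads), 5 in *Mov10* Deletion 1 (3.18 to 4.21) and 5 in *Mov10* Deletion 2 (3.08 to 4.16). Target assignments there numbered 1, 0 and 1, against 4, 4 and 5 in the stretch with the 4 loci. Of the 20 enriched WT clusters of *Rbfox3*, 15 overlapped an enriched cluster of *Mov10* Deletion 1, 15 one of *Mov10* Deletion 2 and 14 one of both. Over all enriched WT clusters the shares were 56.4, 45.3 and 36.0%. Of the 20, 10 lay in this second stretch and 4 in the stretch with the 4 loci. Neighbouring clusters can come from the same site, so the overlap is not a count of separate places.

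**Figure D4:**
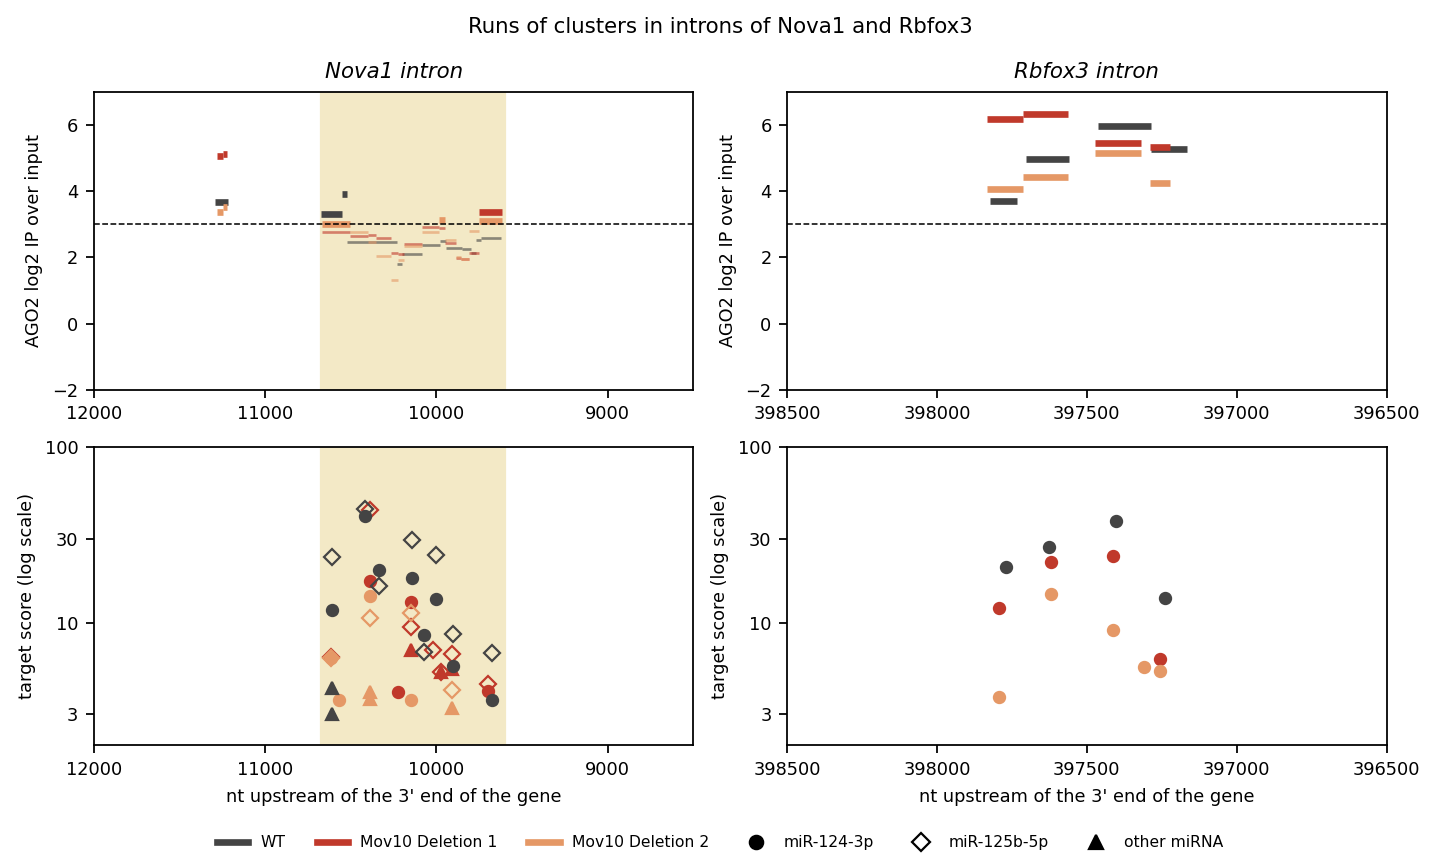
Log2 IP over input of AGO2 clusters (bars, thick where enriched) and target clusters by miRNA (symbols) along 1 intron each of *Nova1* and *Rbfox3*, against the distance in nt before the 3′ end, by library. The shaded band is the 26-nt tandem repeat of *Nova1*, and the *Nova1* targets lie inside it. The 4 *Rbfox3* miR-124-3p loci lie outside the 24-nt repeat, which is not shaded, and over enriched clusters in each library.

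*Srrm4* (chr5:116439268-116592562, minus strand) had the fewest assignments of the 9 genes in WT and in *Mov10* Deletion 2, where it shared that place with *Ptbp3*: 4 in WT, 5 in *Mov10* Deletion 1 and 2 in *Mov10* Deletion 2. All were intronic and none recurred in all 3 libraries. The top score was for miR-124-3p in WT (6.68, 7644.5 nt from the end), miR-16-5p in *Mov10* Deletion 1 (6.0) and miR-9-5p in *Mov10* Deletion 2 (3.06). AGO2 was enriched in 6 of 158, 36 of 267 and 7 of 267 clusters. The top ones were intronic and at different places: chr5:116529903-116529969 in WT (log2 3.76, 16 over 1 read), chr5:116474858-116474885 in *Mov10* Deletion 1 (4.71, 30 over 2 reads) and chr5:116559461-116559494 in *Mov10* Deletion 2 (4.71, 11 over 1 read).

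Over the 9 genes, 30 recurring loci named the same miRNA in all 3 libraries, 20 of them miR-124-3p. They lay on 7 genes, 24 in introns, 5 in 3’UTRs and 1 in coding sequence. A place counts once for each miRNA that recurred there, so there were fewer separate places than loci. This holds for the *Ptbp2* 3’UTR locus, the miR-181 pair of *Rbfox1* and places on the *Nova1* repeat. Loci on the *Nova1* repeat are included in these counts and may not be separate sites. As a share of assignments, 33 of 173 in WT (19.1%, exact 95% interval 13.5 to 25.7), 31 of 251 in *Mov10* Deletion 1 (12.4%, 8.55 to 17.1) and 31 of 133 in *Mov10* Deletion 2 (23.3%, 16.4 to 31.4) recurred, beside 14.7, 10.5 and 23.7% over all genes. The member intervals hold the share of all genes in each library.

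The 5 miRNAs with most assignments on the 9 genes, summed over libraries, were miR-124-3p (198), miR-125b-5p (52), miR-9-5p (49), miR-466i-5p (44) and let-7c-5p (23). miR-124-3p took 41.0% of assignments in WT (33.6 to 48.8), 29.5% in *Mov10* Deletion 1 (23.9 to 35.5) and 39.8% in *Mov10* Deletion 2 (31.5 to 48.7), against 42.2, 34.8 and 36.8% over all genes. Here too the share of all genes fell inside the member interval in each library. For miR-125b-5p it was 10.4, 9.96 and 6.77% against 6.13, 5.55 and 5.51%, where the *Nova1* repeat adds to the members. Its member interval lay above the share of all genes in WT (6.28 to 15.9) and *Mov10* Deletion 1 (6.55 to 14.4). In *Mov10* Deletion 2 it held that share (3.14 to 12.5). For miR-466i-5p it was 4.05, 10.4 and 8.27% against 4.14, 5.48 and 5.9%, and *Rbfox1* held 6, 20 and 10 of these assignments. Here the member interval lay above the share of all genes in *Mov10* Deletion 1 (6.88 to 14.8). It held that share in WT (1.64 to 8.16) and *Mov10* Deletion 2 (4.2 to 14.3).

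miR-9-5p took 9.83, 7.57 and 9.77% on the members and 9.12, 6.69 and 6.86% over all genes, and let-7c-5p 3.47, 5.18 and 3.01% against 3.52, 3.32 and 3.07%. Among assignments whose miRNA sequence was at hand, 34 of 83 in WT, 37 of 135 in *Mov10* Deletion 1 and 17 of 62 in *Mov10* Deletion 2 had a match to bases 2 to 8 under the cluster on the gene's strand (41.0, 27.4 and 27.4%). In windows of the same length along the same gene the mean share was 0.833, 0.634 and 0.736%. A match is a description of the letters, and clusters on the *Nova1* repeat count more than once.

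**Figure D5:**
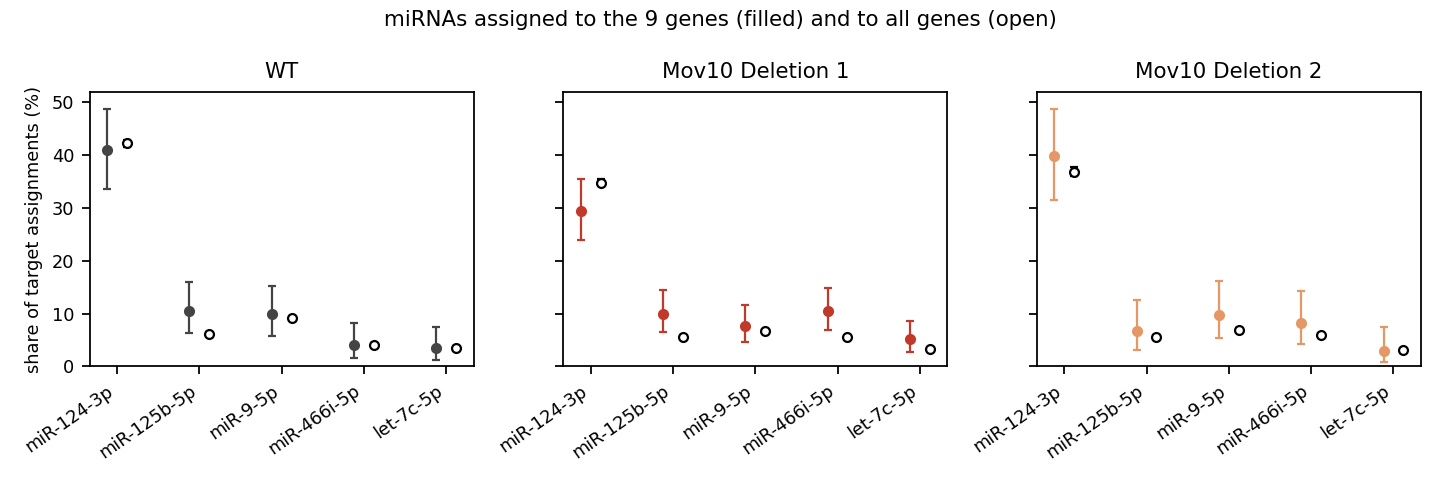
Share of target assignments (percent, with exact 95% intervals for the members) that named each of the 5 leading miRNAs on the 9 genes (filled) and on all genes (open), by library. miR-124-3p is the most frequent in every library, at 41.0, 29.5 and 39.8% on the 9 genes.

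Most clusters of the 9 genes were intronic. By class, 106 of 140 target clusters in WT, 199 of 231 in *Mov10* Deletion 1 and 106 of 123 in *Mov10* Deletion 2 were in introns, as were 54 of 64, 242 of 279 and 118 of 134 enriched AGO2 clusters. Only 19.3, 10.8 and 9.76% of target clusters were in the last 5000 nt of the gene, against 43.3, 34.8 and 37.2% over all genes. Without *Rbfox1* it was 36.5, 27.9 and 25.0%. Of the AGO2 clusters in a 3’UTR, 10.1, 28.0 and 15.1% were enriched, and of those in an intron 2.97, 6.91 and 3.37%.

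An AGO2 cluster lay under 104 of 140, 136 of 231 and 79 of 123 target clusters, and an enriched one under 23, 27 and 14. Enriched AGO2 clusters recurred in part: 31 were enriched in both *Mov10* Deletion libraries, which is 11.1% of the 279 in the first (7.68 to 15.4) and 23.1% of the 134 in the second (16.3 to 31.2), beside 13.7 and 22.8% over all enriched clusters of these libraries. Of the 64 in WT, 31 overlapped an enriched cluster of *Mov10* Deletion 1 (48.4%, 35.8 to 61.3), 28 one of *Mov10* Deletion 2 (43.8%, 31.4 to 56.7) and 22 one of each (34.4%, 22.9 to 47.3), beside 56.4, 45.3 and 36.0% over all enriched WT clusters. The member intervals hold the values of all clusters.

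Other genes of the same biology were counted beside the 9. Of 28 other neuronal splicing regulators (ELAVL, CELF, MBNL and related proteins), 13 had an enriched AGO2 cluster in WT, 21 in *Mov10* Deletion 1 and 22 in *Mov10* Deletion 2, and 22, 21 and 11 had a miR-124-3p target cluster. A target cluster of any miRNA was on 25, 27 and 23 of them. Of 10 genes of the miR-124 circuit or with exons under PTBP or SRRM4 control, 6, 8 and 9 had an enriched cluster, 9, 9 and 6 a target cluster and 7, 5 and 5 one of miR-124-3p. Over all genes with an AGO2 cluster, 18.7, 40.9 and 32.1% had an enriched one in these libraries. A target cluster was on 40.9, 45.9 and 32.2% of them, and one of miR-124-3p on 29.6, 29.4 and 18.2%. Gene length was not taken into account.

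Markers of several brain cell types carried AGO2 clusters. The 6 neuronal markers had clusters in every library, as did the 5 of radial glia and astrocytes, the 4 of the oligodendrocyte lineage, the 3 of endothelium and the 2 of blood. Of 4 microglial markers 2, 3 and 3 had one, and of 3 genes of other organs 1. In WT an enriched cluster was on 2 neuronal, 1 oligodendrocyte and 2 blood markers and on no other, in *Mov10* Deletion 1 on 5 neuronal, 4 glial, 4 oligodendrocyte, 2 endothelial and 2 blood markers, and in *Mov10* Deletion 2 on 4, 2, 2, 1 and 1 of these and 1 of microglia. Over all genes with an AGO2 cluster, 18.7% had an enriched one in WT, 40.9% in *Mov10* Deletion 1 and 32.1% in *Mov10* Deletion 2. The part of these cell types in the member values was not tested.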

How the data were processed

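AGO2 chimeric eCLIP clusters from P0 mouse brain were analysed. Per the labels and methods, reads were processed with UMI-tools 1.1.1, cutadapt 3.2, Bowtie 1.2.3 and STAR 2.7.7a, reads on repeats and rRNA were removed, the rest was mapped to mm10, PCR duplicates were removed and clusters were called with CLIPper. Removal of repeat reads and placement of reads within tandem copies can change intronic clusters. The authors deposited the IP over input of each AGO2 cluster as log2 and its p-value as −log10. Target clusters of chimeric reads were deposited with miRNA names and a score that the sources used here do not explain. Read totals were not given, so the depth is unknown. Reads per cluster were inferred from the steps of the ratio, which gave whole reads for 98.4, 100.0 and 100.0% of enriched member clusters.

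Clusters were assigned to RefSeq gene bodies on mm10 by strand (1-nt overlap). Coding sequence, UTR and intron were taken from GENCODE vM39 by distance along the gene, after RefSeq promoter sequences around each member matched GRCm39 at 1 constant displacement per gene (for *Srrm4* 19 of 20 sequences). No coordinates were converted: clusters are in mm10 and sites in GRCm39, counted from 1. Sites were found by searching the gene's strand for the reverse complement of miRNA bases 2 to 8. Distances run from the RefSeq 3′ end to the middle of a cluster. Tandem repeats were sought in windows of 300 nt at a step of 50 nt (period 10 to 100 nt, identity 80%).

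With 1 WT library and *Mov10* Deletion libraries that share cluster coordinates, no test was made. Where a share has an interval, it is the exact Clopper-Pearson 95% interval. The text names, per gene and library, the enriched AGO2 cluster with the highest log2 (ties named) and the target cluster with the highest score, all miR-124-3p clusters on the *Ptbp* genes, the 5 miRNAs with most assignments and any miRNA recurring in all 3 libraries; other clusters were named after their values were seen. The members and lists were chosen with earlier results of these data known. The inference of reads was tested on values simulated with its own formula, which does not itself show that the formula fits the deposited values. Other cut-offs, a minimum of 16 IP reads, single miRNAs, other windows and leaving out a library, *Rbfox1* or *Rbfox3* were tried.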

Additional observations from a re-analysis of the deposited data

How the results depend on the processing

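Of 71 alternative values, 46 stayed within 1.5 times the reported count or inside its interval and 25 did not. The count of enriched AGO2 clusters on the 9 genes followed the cut-off: at a log2 of at least 2 it was 131 in WT, 509 in *Mov10* Deletion 1 and 236 in *Mov10* Deletion 2, at a log2 of at least 4 it was 14, 84 and 57, at a −log10 p of at least 5 it was 136 and 78 in the *Mov10* Deletion libraries, with at least 16 IP reads 142 and 53, and without *Rbfox3* 162 and 75. Assignments numbered 115, 144 and 77 at a score of at least 4, 98, 96 and 56 without *Rbfox1*, and 111 in WT from clusters naming a single miRNA. The share in the last 1000 nt was 4.29, 3.03 and 3.25%, and in the last 5000 nt without *Rbfox1* 36.5, 27.9 and 25.0%. All 9 genes had an enriched cluster in each *Mov10* Deletion library, so leaving out either could only give 9. Leaving out *Rbfox1* or *Rbfox3*, adding 5000 nt downstream, which added no assignment, and leaving out the *Nova1* repeat were chosen after seeing the data. No paired analysis was possible because no result comes from a test. Depth is unknown, and the 16 IP reads that WT needed over 1 input read, against 9 and 8, limit what could pass there.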
